A study of Mus musculus with 36 samples.

Results

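Gonads of XX mouse embryos lacking the miR-17~92 cluster of microRNAs (XX KO) were compared with XX control gonads at embryonic day E11.5, the stage at which the testis pathway starts in XY but not in XX gonads. The libraries were taken by the genotype, sex and stage in their labels, which gave 6 of the 36 libraries of the series, 3 in each group. XX KO embryos carried the transgene Tg(CAG-cre)1Nagy and were homozygous for a deletion (del/del) of miR-17~92. They descended from mice with a floxed allele of the cluster, on a mixed C57BL/6 and 129S4/SvJae background, that were crossed with mice expressing Cre from the broadly active CAG promoter, so the deletion was not limited to the gonad. XX control embryos are labelled wild type, and whether they carried the Cre transgene or a floxed allele is not given in the sources used here. Each library was made from pooled pairs of gonads with the attached mesonephros, the embryonic kidney that lies beside the gonad. In such whole-tissue RNA, fewer cells of a type and less RNA per cell cannot be told apart. The paper reports smaller mutant than control gonads at E11.5, in embryos of similar size. How large a part of each library came from the gonad was not measured. Neither the labels nor the methods name litters, so p-values measure the spread between these libraries. Values from 6 XY libraries of E11.5 (XY KO and XY control, also gonad with mesonephros) and from 6 XX libraries of E12.5 are given for comparison. Those of the later stage came from gonads alone and from another library kit.

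MicroRNAs guide Argonaute proteins to mRNAs, mostly through pairing of the seed, bases 2 to 8 of the microRNA, with the 3′ untranslated region (UTR), and thereby lower the stability and translation of the mRNA. The members of miR-17~92 are cut from 1 primary transcript, that of Mir17hg, and the cluster is known for its part in cell proliferation, survival and organ growth. At E11.5 the gonad is bipotential, with somatic cells that express Wt1, Nr5a1, Gata4 and Lhx9, and in XX embryos the Wnt4, Rspo1 and Foxl2 pathways lead to the ovary.

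The 6 mature microRNAs of the cluster are shown because their seeds define the matches counted below. Sequences are from RefSeq (GRCm38.p6, chromosome 14, plus strand), written 5′ to 3′ with the seed in capitals. They are grouped by the 4 seed families, each named after its first member.
miR-17-5p (chr14:115043684-115043706): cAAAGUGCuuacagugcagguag
miR-20a-5p (chr14:115044183-115044205): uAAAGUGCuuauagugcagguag
miR-18a-5p (chr14:115043867-115043889): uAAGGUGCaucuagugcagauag
miR-19a-3p (chr14:115044048-115044070): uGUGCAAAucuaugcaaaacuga
miR-19b-3p (chr14:115044358-115044380): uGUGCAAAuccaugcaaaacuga
miR-92a-3p (chr14:115044476-115044496): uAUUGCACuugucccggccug
miR-17-5p and miR-20a-5p share 1 seed, and so do miR-19a-3p and miR-19b-3p.

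Total counts per library lay between 17150620 and 34077443 in XX control and between 22981136 and 26158024 in XX KO. The 4 markers of gonadal somatic cells summed to 923 to 1071 CPM (counts scaled to a common library size) in XX control and to 819 to 1051 in XX KO, and none of them was called. Sums of defining markers were scaled by total counts alone. Sry was at 0 to 1 counts in every XX library. Germ cell markers varied between libraries, with the sum of 5 markers at 56.8, 82.9 and 194 CPM in XX control 1, 2 and 3 and at 41.5, 104 and 30.5 CPM in XX KO 1, 2 and 3. XX KO 1 stood apart for the sum of 3 sympathoadrenal markers, at 48.1 CPM against 2.23 to 30.7 in the other XX libraries. XX KO 3 stood apart for 4 erythroid markers, at 47.7 CPM against 14.6 to 26.1.

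Reads of the host gene Mir17hg (chr14:115042879-115046727, plus strand), which was checked first as the targeted locus, were about 5 times as frequent in XX KO as in XX control. The CPM values were 19.2, 22.1 and 20.7 in XX control and 99.9, 107 and 98.2 in XX KO, a log2 fold change of 2.30 ± 0.25 (SE, n = 3 per group; FDR 0.000979, edgeR quasi-likelihood test with Benjamini-Hochberg adjustment). The lowest XX KO library lay far above the highest XX control, and the log2 fold change was 2.11 in XY and 1.22 in XX at E12.5. Counts per gene do not separate the deleted segment from the rest of the host gene, so they neither show nor measure the deletion, and the cause of the higher count was not tested. Mycn, a transcription factor gene on the list of the cluster, its paralogs and the microRNA machinery, was the other called member. It was at 112, 109 and 112 CPM in XX control and 167, 184 and 163 CPM in XX KO (log2 fold change 0.62 ± 0.10; FDR 0.003, edgeR). Both calls held without any 1 XX library. None of the other 14 tested members of this list, among them Drosha, Dgcr8 and Dicer1, was called.

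Of 14217 tested genes, 465 (3.27%) were differentially expressed genes (DEGs, FDR under 0.05), 258 (1.81%) higher and 207 (1.46%) lower in XX KO. Increases were many and small, and decreases were larger. The median log2 fold change of DEGs was 0.579 among those higher and -0.942 among those lower, and 35 of the former against 93 of the latter differed by over 2-fold. In all 465 DEGs the 3 XX KO libraries lay on 1 side of the 3 XX controls, as they also did in 3500 of all tested genes. The share of DEGs that were higher was 55.5%, and 41.8% when libraries were scaled by their total counts instead of TMM (trimmed mean of M-values). Without 1 XX library the number of DEGs was 142 to 316. Of the 98 DEGs named here or in the closing section 41 kept their call without any 1 XX library, and these include most of those with an FDR under 0.01.

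**Figure D1:**
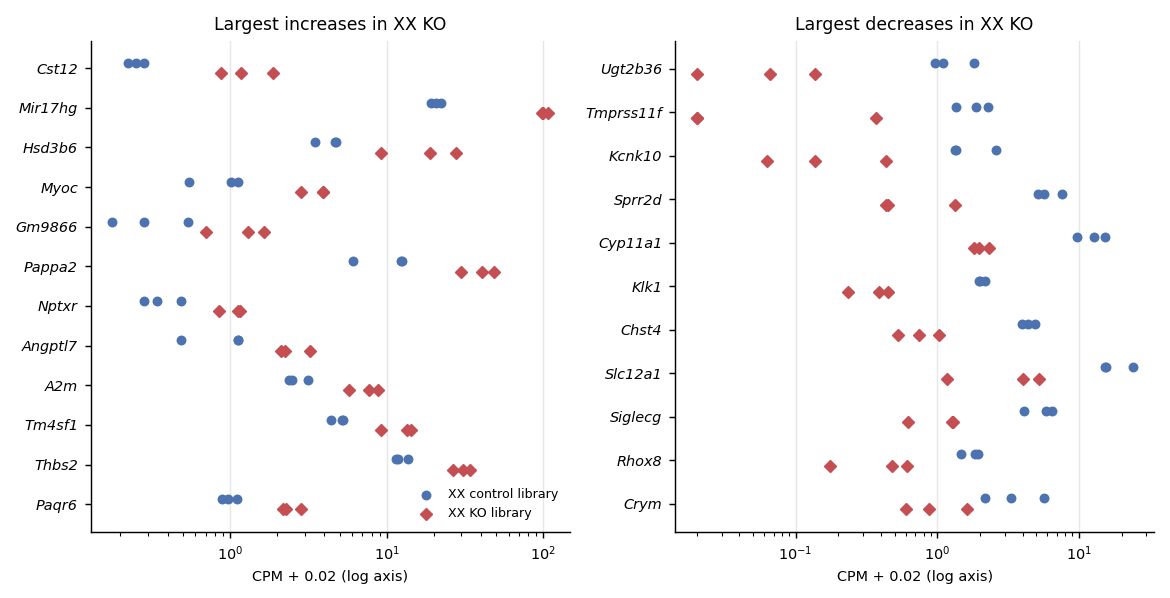
CPM + 0.02 (log axis) of each XX control library (circles) and each XX KO library (diamonds) for the DEGs with the 12 largest increases (left panel) and for 11 of those with the largest decreases (right panel), taken where the mean was at least 1 CPM in 1 group. Lack of overlap between the groups was also required of these genes. Mir17hg is at 19.2 to 22.1 CPM in XX control and 98.2 to 107 in XX KO, and Cyp11a1 at 9.64 to 15.2 and 1.8 to 2.3.

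Of 9 tested steroidogenic genes, 1 was called lower in XX KO and 1 higher. The log2 fold change was below 0 in 7 of the 9, with a list median of -0.24. Cyp11a1 (chr9:58006411-58027023), whose enzyme cleaves the side chain of cholesterol in the first step of steroid synthesis, was at 12.7, 9.64 and 15.2 CPM in XX control and at 1.8, 2.3 and 1.94 CPM in XX KO. It fell by 2.63 ± 0.24 on the log2 scale (SE; FDR 8.65e-05, edgeR). Hsd3b6 (chr3:98805504-98814443), of the family that oxidises the next intermediate, was at 3.49, 4.73 and 4.63 CPM in XX control and at 18.9, 9.18 and 27.5 CPM in XX KO, a log2 fold change of 2.1 ± 0.33 (FDR 0.0047, edgeR). Both calls held without any 1 XX library. The groups did not overlap for either gene, as in all DEGs, and the XX KO libraries differed up to 3 times among themselves for Hsd3b6. Reads of Hsd3b6 may be shared with its close paralogs, since the treatment of reads with several matches is not given in the sources used here. Both genes had the same direction in XY (log2 fold change -2.48 for Cyp11a1 and 1.65 for Hsd3b6). At E12.5 Cyp11a1 was at -1.43 (FDR 0.0813, edgeR) and Hsd3b6 at -0.02 (FDR 0.98, edgeR). The other 7 tested members of the list were not called, among them Star, which delivers cholesterol to the mitochondrion, with 11.4 to 12.7 CPM in XX control and 10.1 to 14.1 CPM in XX KO.

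Among 35 tested genes of the pre-granulosa and Wnt pathway list, 3 fell and none rose. The median log2 fold change of the list was -0.00076 beside -0.00227 over all tested genes. The list holds receptors, inhibitors and targets of the Wnt pathway beside genes of pre-granulosa cells. The sum of the 4 defining pre-granulosa markers (Foxl2, Fst, Wnt4 and Rspo1) was 345.1, 348.4 and 345.9 CPM in XX control and 243, 269 and 281 CPM in XX KO, without overlap. In 11 members all XX KO libraries lay below all controls and in 7 above (11.9% and 12.7% of all tested genes). Fst (chr13:114452290-114458951), the gene of follistatin, an activin antagonist expressed in the early ovary, was at 50.3, 43.3 and 63.7 CPM in XX control and at 15.1, 27.6 and 21.4 CPM in XX KO. It fell by 1.29 ± 0.25 on the log2 scale (FDR 0.016, edgeR). In XY gonads, where Fst was low (12.9 ± 4.27 CPM in XY control, SD, n = 3), it was at -0.02. The difference between the 2 effects was -1.27 ± 0.36 (SE; FDR 0.23, edgeR interaction), which missed the threshold. Irx3, a homeobox gene of pre-granulosa cells, fell by 0.86 ± 0.19 (FDR 0.0255, edgeR), and Lgr5, an R-spondin receptor gene, by 0.71 ± 0.18 (FDR 0.046, edgeR). Fst lost its call without XX KO 3 or XX control 3 (FDR up to 0.0631, edgeR), Irx3 without XX KO 1, XX KO 3, XX control 1 or XX control 3 (up to 0.116), and Lgr5 without any 1 of the 6 libraries (0.0602 to 0.202).

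Foxl2 itself, the forkhead gene of granulosa cells, was at 9.93, 7.86 and 11.2 CPM in XX control and at 3.83, 6.97 and 4.7 CPM in XX KO. Its log2 fold change of -0.90 ± 0.24 had an FDR of 0.0562 (edgeR), just past the threshold, although the groups did not overlap. In XY, Foxl2 was at 1.29 ± 0.331 CPM in control and 2.56 ± 0.428 in KO (SD, n = 3), a log2 fold change of 0.97 (FDR 0.0351, edgeR). The difference between the effects was -1.87 ± 0.37 (SE; FDR 0.0908, edgeR interaction). Runx1, a transcription factor gene of the early supporting cells, was at -0.89 ± 0.23 with an FDR of 0.0511 (edgeR), and Wnt4 was at -0.29 ± 0.11 (FDR 0.184, edgeR). At E12.5 Fst was at -0.64 (FDR 0.07, edgeR), Foxl2 at -0.01 and Wnt4 at 0.43 (FDR 0.29, edgeR).

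The list of bipotential gonad genes had 2 DEGs among 21 tested. Tcf21 (chr10:22817281-22820174), a basic helix-loop-helix gene of gonadal and renal mesenchyme, was at 156, 142 and 133 CPM in XX control and at 225, 263 and 282 CPM in XX KO. Its log2 fold change was 0.84 ± 0.12 (FDR 0.00125, edgeR), with 0.38 in XY and 0.95 at E12.5, called in both. Gadd45g (chr13:51846678-51848468), which activates the kinase cascade upstream of Sry, was at 55.4, 54.1 and 43.4 CPM in XX control and at 21.3, 30.3 and 31 CPM in XX KO. It fell by 0.89 ± 0.21 (FDR 0.0374, edgeR) and in XY by 1.52 (FDR 0.00098, edgeR). The call of Tcf21 held without any 1 XX library, and that of Gadd45g was lost without each (FDR 0.0562 to 0.145, edgeR). The transcription factor genes Wt1 (541 to 578 CPM in XX control, 482 to 584 in XX KO) and Nr5a1 (93.6 to 114 and 71 to 95.4) overlapped between the groups.

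Of 17 tested genes of the Sertoli and testis pathway list, 2 fell and 1 rose in XX KO. Dmrt1, a transcription factor gene of the testis that is also expressed in the XX bipotential gonad, was at 12.6, 12.6 and 12.7 CPM in XX control and at 5.5, 9.73 and 7.29 CPM in XX KO, and fell by 0.75 ± 0.19 (FDR 0.0444, edgeR). Gadd45g, also on this list, fell as given above. Pdgfra, the receptor gene for platelet-derived growth factor in gonadal mesenchyme, rose by 0.43 ± 0.11 (FDR 0.0404, edgeR). The median of the list was -0.103 in XX, and -1.25 in XY, where 13 members were called lower and 1 higher (6.81% and 5.88% of all tested genes). Kitl, the ligand gene for the germ cell receptor Kit, was a DEG outside the lists and was chosen after its values were seen. It was at 305, 236 and 332 CPM in XX control and at 153, 205 and 159 CPM in XX KO, and fell by 0.76 ± 0.13 (FDR 0.00446, edgeR). Kitl stayed called without any 1 XX library. Pdgfra lost its call without each of the 6 (FDR 0.0511 to 0.202, edgeR), and Dmrt1 without each but XX KO 2 (up to 0.149).

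Asns (chr6:7675169-7693254), the gene of asparagine synthetase, was the single DEG of XX gonads that was also called in the interaction, the test of XX against XY effects. It was at 125, 100 and 116 CPM in XX control and at 55.2, 45.1 and 49.8 CPM in XX KO, and fell by 1.18 ± 0.11 (FDR 0.000101, edgeR). In XY it was at 54.8 ± 1.97 CPM in control and 56.1 ± 7.57 in KO (SD, n = 3), so that only the XX controls were high. The difference between the 2 effects was -1.22 ± 0.16 (SE; FDR 0.00928, edgeR interaction; 5 genes, 0.0352% of those tested, were called in the interaction), and at E12.5 the XX effect was -1.05 (FDR 0.0309, edgeR). Of 30 tested genes of the amino acid stress response, to which Asns belongs, 2 fell and 2 rose, with a median of -0.0299. Stc2, the gene of a secreted glycoprotein, fell by 0.75 ± 0.14 (FDR 0.0103, edgeR). Vldlr, a lipoprotein receptor gene, rose by 0.74 ± 0.12 (FDR 0.0047, edgeR), and Aldh18a1, of proline synthesis, by 0.39 ± 0.10 (FDR 0.0411, edgeR). The calls of Asns and Vldlr held without any 1 XX library, that of Stc2 was lost without XX control 1 (FDR 0.0603, edgeR), and that of Aldh18a1 without each but XX KO 2 (up to 0.19).

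**Figure D2:**
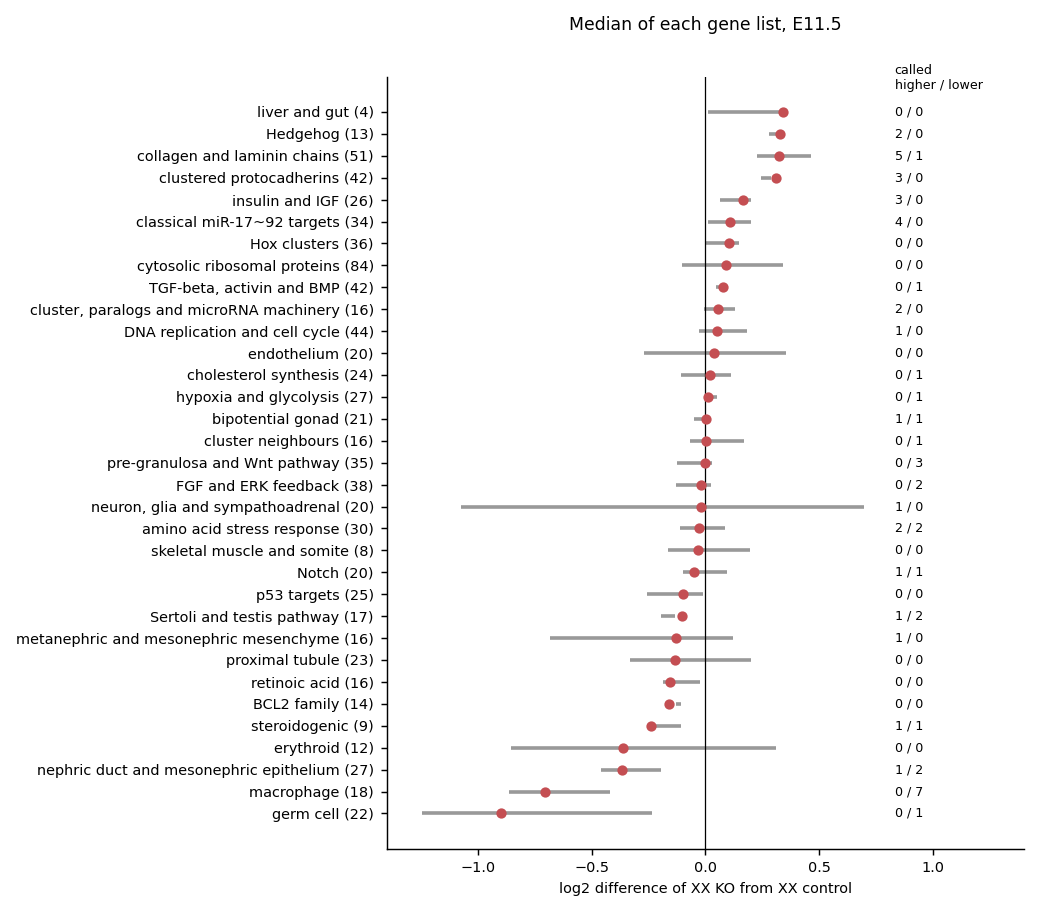
Each gene list with its number of tested genes in parentheses. The dot is the median fitted log2 fold change of XX KO against XX control, the grey bar runs from the lowest to the highest of the 3 XX KO libraries' list medians on the scale log2(CPM + 0.5) minus the mean of XX control, another scale, so that a dot may lie outside its bar, and the right column counts DEGs higher and lower. The germ cell and macrophage lists lie lowest (medians -0.899 and -0.706) and the largest counts of DEGs are 7 lower in the macrophage list and 5 higher in the collagen and laminin list.

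Macrophage genes were lower in XX KO, with 7 of 18 tested members called lower (1.46% of all tested genes were), none higher, and a list median of -0.706. In 13 members all XX KO libraries lay below all controls (11.9% of all tested genes did). Csf1r, the receptor gene for the growth factor of macrophages, was at 38.8, 31.8 and 35.2 CPM in XX control and at 18.7, 14.5 and 14.6 CPM in XX KO, and fell by 1.14 ± 0.17 (FDR 0.00197, edgeR). Mpeg1, of a pore-forming protein of phagocytes, fell by 1.00 ± 0.19, and Spi1, the transcription factor gene of the myeloid lineage, by 0.96 ± 0.24 (FDR 0.0114 and 0.0418, edgeR). Fcgr1, Tyrobp, Ptprc and C1qc fell by 0.72 to 1.04. Cd68 (5.47 to 7.32 CPM in XX control, 4.59 to 8.35 in XX KO) and Lyz2 (8.57 to 12.1 and 7.84 to 23.7), also macrophage genes, overlapped between the groups. The sum of the 4 defining markers was 68.6 to 78.3 CPM in XX control and 36.5 to 48.9 in XX KO. In XY the list median was -0.505 with 5 called lower, and at E12.5 it was 0.138. Without XX control 1, 2 or 3, or without XX KO 2 or 3, the number of called members was 2, and without XX KO 1 it was 7. Csf1r and Mpeg1 were called in each of these fits. Fcgr1 was called in none of them (FDR 0.0632 to 0.152, edgeR), so the 7 called without XX KO 1 are not the 7 named here.

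Germ cell genes had the lowest median of all lists, -0.899 over 22 tested members, but 1 DEG. Lin28a, of an RNA-binding protein of germ and pluripotent cells, was at 21.4, 27 and 42.3 CPM in XX control and at 16.3, 20.1 and 13.4 CPM in XX KO, and fell by 0.86 ± 0.21 (FDR 0.0342, edgeR). Pou5f1, the pluripotency transcription factor gene, was at 28.9, 39.3 and 68.6 CPM in XX control and at 18.9, 32.1 and 15.7 CPM in XX KO (log2 fold change -1.04; FDR 0.161, edgeR). XX control 3 was the highest library for both genes. Without it the list median was -0.42 and Lin28a was not called (FDR 0.141, edgeR), nor was it without XX KO 1, XX KO 3 or XX control 2. At E12.5, in gonads without mesonephros, the median was -0.847 and 12 of the 22 members were called lower in XX KO, none higher (1.85% of all genes tested at E12.5 were called lower and 3.42% higher, 5.26% in all).

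**Figure D3:**
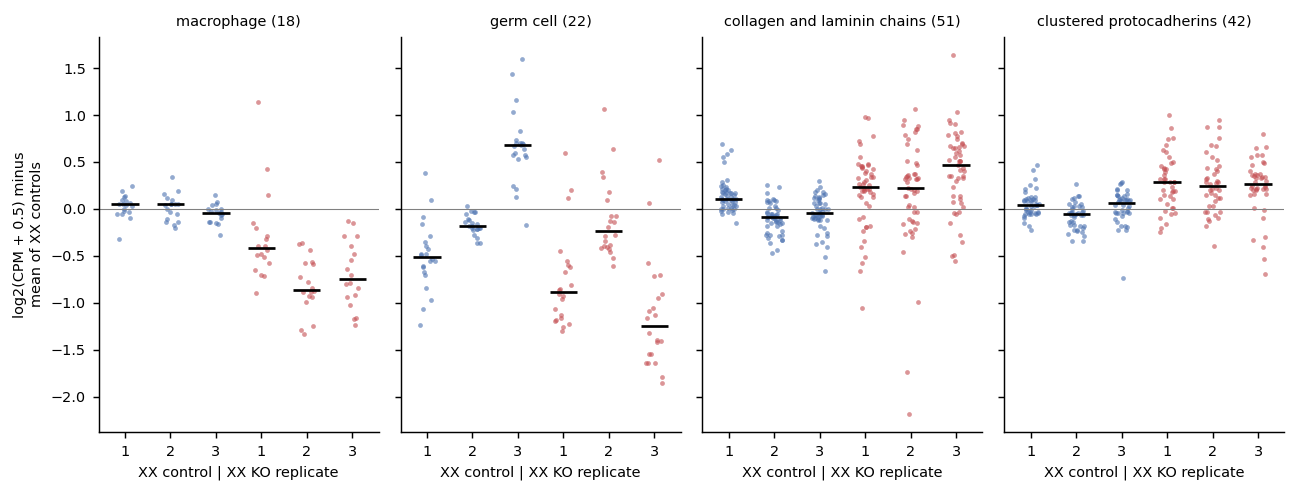
log2(CPM + 0.5) minus the mean of the 3 XX controls for each member (points) of 4 gene lists in each XX library, with the median over members as a black line. Macrophage genes are lower in all 3 XX KO libraries, germ cell genes spread widely with XX control 3 high, and collagen, laminin and protocadherin genes are slightly higher in all 3 XX KO libraries.

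Genes of collagen and laminin chains, the scaffold of the extracellular matrix and of basement membranes, had a median of 0.324 over 51 tested members, with 5 called higher and 1 lower. In 26 of the 51, all XX KO libraries lay above all controls (12.7% of all tested genes did). Lama5, an epithelial basement membrane laminin gene, was at 178, 166 and 190 CPM in XX control and at 286, 299 and 313 CPM in XX KO, a log2 fold change of 0.75 ± 0.11 (FDR 0.00125, edgeR). Lamc3 rose by 0.89 ± 0.15 and the collagen genes Col4a4 by 1.17 ± 0.23, Col16a1 by 0.68 ± 0.13 and Col5a2 by 0.65 ± 0.13. Col23a1, of a membrane-bound collagen, went the other way and fell by 0.68 ± 0.15 (FDR 0.025, edgeR). Levels in the 3 XX KO libraries lay above the controls in each of the 5 that rose, as in every DEG higher in XX KO. In XX at E12.5 the list median was 0.698 with 21 called higher and none lower (3.42% and 1.85% of all genes tested there). In XY at E11.5 it was 0.161 with 4 called each way (5.88% higher and 6.81% lower of all tested genes). Without XX control 2, 2 members were called higher, Lama5 and Lamc3, which stayed called without any 1 library. Col5a2 lost its call without XX KO 3, XX control 2 or XX control 3 (FDR up to 0.0787, edgeR), Col4a4 without XX control 2 or 3 (0.0828), Col16a1 without XX control 2 (0.0658) and Col23a1 without XX KO 2, XX control 1 or XX control 2 (0.119).

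Clustered protocadherin genes, which encode cell surface adhesion proteins in tandem arrays, had a median of 0.308 over 42 tested members. All XX KO libraries lay above all controls in 22 of them and below in none (12.7% and 11.9% of all tested genes). Called higher were 3 of the 42, or 7.14%, against 1.81% of all tested genes. Pcdhb16 was at 5.75, 4.09 and 3.89 CPM in XX control and at 9.56, 9.14 and 7.38 CPM in XX KO, and rose by 0.93 ± 0.19 (FDR 0.0138, edgeR). Pcdhb19 rose by 0.77 ± 0.19 (FDR 0.0368, edgeR) and Pcdhgb7 by 0.44 ± 0.11 (FDR 0.0473, edgeR). These genes are close copies of each other, so reads may be shared between them and the members are not independent. In XY 11 were called higher and 1 lower (5.88% and 6.81% of all tested genes). When 1 XX library was left out, 1 member, Pcdhb16, was called, and none without XX control 2 or XX control 3 (FDR of Pcdhb16 up to 0.0906, edgeR).

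The signalling lists named next had 1 to 3 DEGs each. Called were 15.4% of Hedgehog genes and 5.26% of FGF and ERK feedback genes, with the insulin and IGF list and the Notch list between them. The share was 2.38% for TGF-beta, activin and BMP genes and 3.27% for all tested genes. Of 13 Hedgehog genes 2 rose, Hhip, a Hedgehog-binding inhibitor and target (log2 fold change 0.66 ± 0.16; FDR 0.0363, edgeR), and the effector gene Gli2 (0.46 ± 0.10; FDR 0.0214, edgeR), and the median was 0.326. In XY the Hedgehog median was 0.0158. Of 26 insulin and IGF genes 3 rose, with a median of 0.165. Igfbp3, an IGF carrier gene, was at 708, 749 and 690 CPM in XX control and at 1135, 1208 and 1403 CPM in XX KO, a log2 fold change of 0.80 ± 0.11 (FDR 0.00105, edgeR). Igf2r, whose receptor clears IGF2, rose by 0.69 ± 0.16 (FDR 0.0274, edgeR), and Irs2, of an adaptor of the insulin receptor, by 0.55 ± 0.14 (FDR 0.0483, edgeR). Of 20 Notch genes Dlk1, of a membrane protein that acts in progenitor cells, rose and Hey1, a Notch effector, fell by 0.43 ± 0.10 (FDR 0.0302, edgeR). Dlk1 was at 483, 398 and 441 CPM in XX control and at 740, 758 and 943 CPM in XX KO (0.88 ± 0.12; FDR 0.00103, edgeR), and at E12.5 its log2 fold change was 1.83 (FDR 0.006, edgeR). Of 38 genes of FGF and ERK feedback 2 fell, Etv4 by 0.80 ± 0.19 and Spred3 by 0.50 ± 0.12. The calls of Igfbp3 and Dlk1 held without any 1 XX library. Those of Hhip, Hey1, Irs2 and Spred3 were lost without each of the 6 (FDR 0.0573 to 0.228, edgeR), those of Igf2r and Etv4 without 5 of the 6 (up to 0.169), and that of Gli2 without XX KO 1, XX KO 2, XX control 1 or XX control 2 (up to 0.131). Fst was the single DEG of 42 TGF-beta, activin and BMP genes.

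Of 44 DNA replication and cell cycle genes 1 was called, Cdkn2c, an inhibitor of the G1 kinases, at 4.18, 4.35 and 3.79 CPM in XX control and at 7.34, 8.42 and 10.1 CPM in XX KO (log2 fold change 1.07 ± 0.20; FDR 0.00872, edgeR). The median of the list was 0.0496. None of 25 p53 targets, 14 BCL2 family genes, 16 retinoic acid genes, 36 Hox genes or 84 cytosolic ribosomal protein genes was called by edgeR, and the medians were -0.0974, -0.162, -0.154, 0.102 and 0.0913. None of 20 endothelial, 23 proximal tubule, 12 erythroid, 8 muscle and 4 liver and gut genes was called either. In 6 of the 14 BCL2 family genes and 6 of the 25 p53 targets all XX KO libraries lay below all controls, and in none of either list above (11.9% and 12.7% of all tested genes). Summed over the list, BCL2 family genes were at 875 to 935 CPM in XX control and 830.1 to 867 CPM in XX KO, and p53 targets at 1088 to 1140 CPM and 997 to 1047 CPM, without overlap in either. An unadjusted p under 0.05 was found for 8 of the p53 targets, 4 of the BCL2 family genes and 2 of the 84 ribosomal protein genes, and for 29 of the 242 genes of these 10 lists together (15.7% of all tested genes had one). DESeq2 called 6 of the 242, Hemgn, Afp, Trf, Trp53inp1, Bik and Hoxb1. Of 27 nephric duct and mesonephric epithelium genes 2 fell and 1 rose, with a median of -0.368. At E12.5, in gonads without mesonephros, the median of this list was 0.641. Of 26 members tested there, 6 were called higher and 2 lower (3.42% and 1.85% of all genes tested at E12.5). In 12 of the 27 all XX KO libraries lay below all controls and in 2 above. Scaled by total counts, the sum of the 4 defining nephric duct markers was 171, 174 and 139.5 CPM in XX control. In XX KO it was 138, 125 and 112 CPM. The groups did not overlap on this scale, but the TMM factors of XX control 3 (1.008) and XX KO 1 (0.9802) reverse the order of these libraries. Spp1, of the secreted glycoprotein osteopontin, was at 8.71, 7.39 and 9.84 CPM in XX control and at 2.5, 3.06 and 3.23 CPM in XX KO, and fell by 1.56 ± 0.22 (FDR 0.00124, edgeR). Krt19, an epithelial keratin gene, rose by 0.65 ± 0.12 (FDR 0.00904, edgeR). Idi1 of cholesterol synthesis and Hk1 of glycolysis each fell by about 0.5 and were the single DEGs of lists of 24 and 27 genes, with calls lost without 4 and 5 of the 6 XX libraries (FDR up to 0.0999 and 0.136, edgeR). Of 16 genes that lie around the cluster, Slitrk1 (chr14:108908800-108914158) was called, and it fell by 0.94 ± 0.19 (FDR 0.0136, edgeR, and 0.0712 without XX control 1). Cdkn2c, Spp1 and Krt19 stayed called without any 1 XX library.

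Genes with the lowest p-values were named by rule in each direction. Among those higher, Olfml2b, of an extracellular olfactomedin protein, was at 30.3, 27.3 and 33 CPM in XX control and at 60.5, 60.3 and 66.6 CPM in XX KO (1.05 ± 0.09; FDR 8.65e-05, edgeR). Pmepa1, an inhibitor of TGF-beta signalling, was at 28.1, 32.4 and 29.7 CPM and at 55.9, 56 and 55.7 CPM (0.89 ± 0.10; FDR 0.00022, edgeR). Zfp651, a zinc finger gene, was at 60.4, 57.2 and 54.3 CPM and at 94.7, 96.1 and 99.1 CPM (0.75 ± 0.08; FDR 0.00022, edgeR). The 3 genes were also called higher in XY and at E12.5. Myrf, a membrane-bound transcription factor gene, was at 394, 410 and 454 CPM and at 690, 706 and 726 CPM (0.75 ± 0.09; FDR 0.000476, edgeR). Frem1, of a basement membrane protein, rose by 0.86 ± 0.10, and Ano1, of a chloride channel, by 0.75 ± 0.09. Thbs2, of a matrix thrombospondin, had 26.5 to 34.0 CPM in XX KO (1.30 ± 0.16; FDR 0.000476, edgeR). All of these calls held without any 1 XX library.

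Among those lower, Akr1cl, of an aldo-keto reductase, was at 71.1, 71.7 and 74.1 CPM in XX control and at 25.3, 33.4 and 26.2 CPM in XX KO, and fell by 1.35 ± 0.13 (FDR 0.000101, edgeR). Tgm3, a transglutaminase gene, was at 30.7, 31.3 and 33.3 CPM and at 8.66, 9.05 and 9.41 CPM (-1.81 ± 0.21; FDR 0.000447, edgeR). The XX KO libraries of Tgm3 lay within 1 CPM of each other. Gas7, Ttc38 and Nup62cl fell by 0.98 ± 0.13, 1.06 ± 0.14 and 1.77 ± 0.21. The largest decreases were in genes of low level, such as Sprr2d (5.08 to 7.63 CPM in XX control, 0.415 to 1.32 in XX KO), Chst4 (3.94 to 4.88 and 0.507 to 1.01) and Slc12a1 (15.4 to 23.9 and 1.15 to 5.23), the last a salt transporter gene of kidney tubules. Ugt2b36 (0.947 to 1.8 CPM in XX control) and Tmprss11f (1.34 to 2.26 CPM) were at 0 in 1 and 2 of the XX KO libraries, so no fold is given for them. Sprr2d, Ugt2b36, Klk1 and Rhox8 belong to multigene families, in which reads may be shared between copies. The call of Tmprss11f was lost without each XX library but XX KO 1 (FDR up to 0.0913, edgeR), and the other calls of this paragraph held in every such fit that tested the gene.

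Xist (chrX:103460366-103483254), the RNA that silences 1 X chromosome in XX cells, was at 1930, 1569 and 1724 CPM in XX control and at 2756, 2852 and 2092 CPM in XX KO, a log2 fold change of 0.56 ± 0.13 (FDR 0.0319, edgeR). The groups did not overlap, as in all DEGs. The log2 fold change at E12.5 was 0.06 (FDR 0.94, edgeR). The call was lost without each XX library but XX KO 3 (FDR up to 0.162, edgeR). Of 516 tested X-linked genes 6 were called higher and 8 lower, with a median of -0.0059, beside -0.0023 over 13663 autosomal genes. The median of X-linked genes thus lay close to that of autosomes in the XX comparison. In XY at E11.5 the median was 0.0913 for X-linked and -0.0281 for autosomal genes.

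Matches to the seeds were counted in the longest annotated 3′ UTR (GENCODE M21, GRCm38) of 13537 tested genes, on the transcript strand only. A match was the 7 bases that pair with the seed, GCACTTT for miR-17, GCACCTT for miR-18, TTTGCAC for miR-19 and GTGCAAT for miR-92, and an 8mer was such a match followed by A. Of 6896 matches, 172 overlapped the next one. At least 1 match was present in 53.4% of 253 DEGs higher in XX KO, in 28.9% of 204 DEGs lower and in 33.4% of all tested genes. For 8mers the shares were 33.2%, 13.7% and 13.6%. Each family was more frequent among genes higher in XX KO than among all tested genes, at 25.3% against 14.2% for miR-17, 18.6% against 9.29% for miR-18, 25.3% against 13.2% for miR-19 and 14.2% against 7.76% for miR-92. Among genes lower the shares were 11.8%, 7.84%, 12.75% and 10.8%, the last, of miR-92, also above that of all tested genes. These shares are a description, and a match is not a site shown to be bound.

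Long 3′ UTRs hold more matches, and the shares were therefore also read within 3 length classes. In the short class 34.8% of genes called higher, 6.15% of those called lower and 9.21% of all had a match. In the middle class the shares were 48.3%, 19.4% and 31.0%, and in the long class 70.4%, 55.8% and 60.1%. The share of genes called higher was 1.31% with no family matched, 2.35% with 1, 4.34% with 2, 5.37% with 3 and 11.1% with 4, the last from 36 genes. The share called lower was 1.61%, 1.15%, 1.66%, 0.976% and 8.33% in the same order, so the last class was high both ways. The median 3′ UTR length rose from 797 bases with no family to 6389 with 4. The median log2 fold change in these classes was -0.0186, 0.0205, 0.049, 0.109 and 0.133, so that the genes with matches of several families were shifted upward by little on average.

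**Figure D4:**
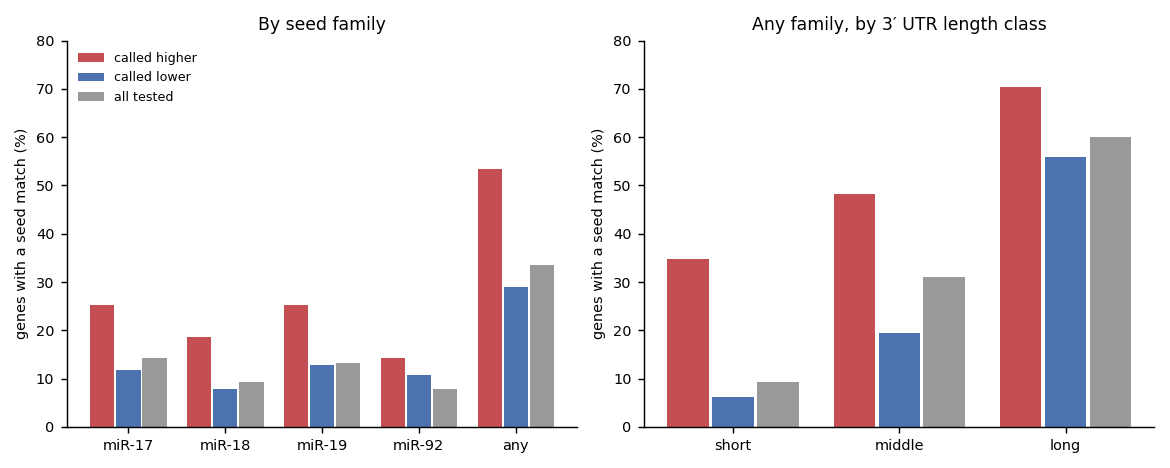
Percentage of genes with a seed match in the 3′ UTR among DEGs higher in XX KO (red), DEGs lower (blue) and all tested genes (grey), by seed family and, for any family, by 3′ UTR length class. The red bar is the highest in every group, for example 34.8% against 9.21% of all tested genes in the short class.

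Matches of 8 bases are given for DEGs higher in XX KO, as examples of what was counted. Each is a window of 30 bases of the transcript strand (GRCm38) within the 3′ UTR exon of the gene, 5′ to 3′, with the 8mer in capitals.
Pmepa1, miR-19 match, chr2:173227448-173227477, minus strand: ttaaagacataTTTGCACAaaacctttgtt
Zfp651, miR-17 match, chr9:121769029-121769058, plus strand: caataaacgaaGCACTTTAttctgtacagg
Zfp651, miR-18 match, chr9:121768854-121768883, plus strand: tgtcacactctGCACCTTAcacccctcccg
Socs3, miR-19 match, chr11:117966148-117966177, minus strand: tcaactcagacTTTGCACAtatatttatat
Igfbp3, miR-19 match, chr11:7207461-7207490, minus strand: atatgccttatTTTGCACAaaagactgcca
Dlk1, miR-19 match, chr12:109461518-109461547, plus strand: ccccaccaaggTTTGCACAggctttagtga
Mycn, miR-18 match, chr12:12936137-12936166, minus strand: tatttagtgctGCACCTTAgagcactttga
Xylt2, miR-92 match, chr11:94664286-94664315, minus strand: gggaggacgatGTGCAATAgggctcagagc
Socs3, a feedback inhibitor of cytokine signalling, was at 22.2, 25.1 and 23.6 CPM in XX control and at 38.8, 43.2 and 38.2 CPM in XX KO (log2 fold change 0.76 ± 0.09; FDR 0.000585, edgeR). Xylt2, a xylosyltransferase that starts proteoglycan chains, rose by 0.75 ± 0.10 (FDR 0.000943, edgeR). Not every gene with a low p-value held a match: Myrf, Frem1 and Tcf21, all higher in XX KO, had none of the 4 families in this annotation.

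The median of 34 tested genes on a list of classical targets of the cluster was 0.109. Of the 34, 4 rose and none fell (1.81% and 1.46% of all tested genes). Beside Socs3 these were E2f1 (0.38 ± 0.10; FDR 0.046, edgeR) and Rbl2 (0.41 ± 0.10; FDR 0.0356, edgeR), a cell cycle activator and a repressor of the E2F and retinoblastoma families, and Itga5 (0.47 ± 0.11; FDR 0.0299, edgeR), of the fibronectin receptor. Without 1 XX library the call of Socs3 held, those of E2f1 and Rbl2 were lost for each of the 6 (FDR up to 0.193, edgeR), and that of Itga5 for each but XX KO 2 (up to 0.15). Bcl2l11, a well-known target that encodes the pro-apoptotic protein BIM, was not called. It was at 70.3, 70.7 and 68.5 CPM and at 67.3, 55.3 and 55 CPM (-0.24 ± 0.10; FDR 0.255, edgeR). Bcl2l11 was named for its standing as a target. In XY at E11.5, 8 genes of this list were called higher and 2 lower (5.88% and 6.81% of all tested genes). Tests on RNA levels do not measure translation.

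The DEGs of XX gonads were then followed at E12.5, in other libraries. Of 448 that were also tested there, 398 (88.8%) had the same direction, against 61.4% of all genes tested at both stages, and 150 were called in the same direction, against 4.41% of all. Of the 256 DEGs higher at E11.5, 243 were higher at E12.5, and of the 192 lower, 155 were lower. The single gene called in the opposite direction was Ly6a, a surface antigen gene, at -1.06 ± 0.25 at E11.5 and 3.59 at E12.5 (FDR 0.023, edgeR), with the E11.5 call lost without each library but XX KO 2. The median ratio of the E12.5 to the E11.5 log2 fold change was 0.88 for genes higher and 0.546 for genes lower. In XY at E11.5, 271 of the 465 DEGs (58.3%) were called in the same direction, against 10.2% of all tested genes. Direction and call were shared by 90 DEGs (19.4%) with both XX at E12.5 and XY at E11.5. The last overlap was not counted over all tested genes. At E12.5 the proximal tubule list had 7 of 19 tested members called higher (3.42% of all genes tested at E12.5 were). Its median was 0.97, although the gonads had been taken without the mesonephros. The part of this tissue in the E12.5 values was not tested.

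**Figure D5:**
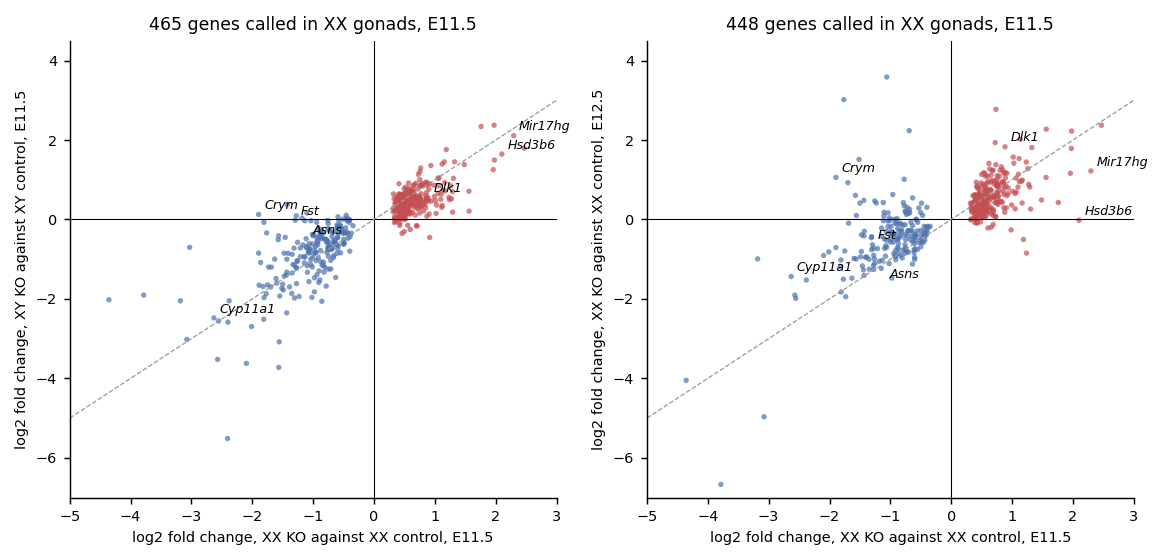
Log2 fold change of the genes called in XX gonads at E11.5 (x axis) against that in XY gonads at E11.5 (left, 465 genes) and in XX gonads at E12.5 (right, 448 genes), red for genes higher and blue for genes lower in XX KO at E11.5; the dashed line marks equal values. Most points lie in the quadrants of equal sign, Asns lies on 0 in XY and near the line at E12.5, and Hsd3b6 lies near 0 at E12.5.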

How the data were processed

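RNA-seq libraries of XX KO and XX control gonads with mesonephros at E11.5 were analysed together with those of XY gonads at E11.5 and, separately, of E12.5. The deposited values are counts, whole numbers that the authors did not normalize: reads were aligned against mm10 with subread in R and assigned to genes by its featureCounts. The annotation used, how strand was set and what was done with multi-mapping reads are not given in the sources used here, so counts of overlapping genes, antisense genes and close copies are uncertain.

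A gene was tested if 2 or more of the 12 E11.5 libraries reached 1 CPM. The test was that of edgeR 4.0.16 (R 4.3.3; TMM scaling, glmQLFit and glmQLFTest, 4 groups, FDR under 0.05 by Benjamini-Hochberg over 14217 genes). CPM values are TMM-scaled, except for the sums of defining cell type markers, which were scaled by total counts alone. A fold change is XX KO over XX control. The interaction is the XX minus the XY effect. The SE of a log2 fold change is its absolute value divided by the square root of the F statistic of the edgeR test. It thus rests on the spread estimated over all 12 libraries, not on the 6 XX libraries alone. DESeq2 1.42.0, other scalings, filters, libraries left out and a replicate block were alternatives. Replicate libraries of a group differed by 7.24 to 26.4 times the sampling variance and were kept as separate samples. Of the tested rows 19 repeat a symbol and were counted once in lists.

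Named genes were Mir17hg and Xist, the 12 largest increases and 12 largest decreases among DEGs without overlap and with a mean of at least 1 CPM, the 8 lowest p-values each way, every called member of a list (with the first members of lists that had fewer than 4) and genes called in the interaction; the text names some of them, and says where a gene was chosen otherwise. The members and lists were chosen with earlier results of these data known. In simulated counts with 200 changed genes among 14217, the XX test recovered 50.5% at 1.5-fold, 80.0% at 2-fold and 98.0% at 4-fold. The interaction test called 11%, 61.5% and 92% of the changed genes, so differences between XX and XY effects were missed more often. List members Ccn2, Cltrn, Epb42, Ahsp, Wars and Ero1l were not analysed here, and neither were the single-cell data, the authors' comparisons or 12 columns of the Foxl2 tables whose sample could not be mapped from the labels. A few genes are not reported here by name.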

Additional observations from a re-analysis of the deposited data

Results flagged for a closer look

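Of all tested genes 5 had an effect of the KO that differed between XX and XY gonads at E11.5 by the edgeR interaction term (FDR under 0.05), and each is given with the XX effect first. Asns, of asparagine synthetase, differed by -1.216 on the log2 scale (FDR 0.00928, edgeR), with -1.18 in XX and 0.03 in XY. The other 4 were called in XY and not in XX. Adamts16, of a secreted protease, differed by 1.718 (FDR 0.00928, edgeR), at -0.29 in XX (21.6, 22.5 and 22.2 CPM in control, 18.5, 20.2 and 15.7 in KO) and -2.01 in XY. Atg9b, of an autophagy protein, differed by 2.156 (FDR 0.0138, edgeR), at -0.18 in XX and -2.34 in XY. Cbln4, of a secreted cerebellin, differed by 2.375 (FDR 0.01, edgeR), at -0.24 in XX and -2.62 in XY. Cyp26b1, whose enzyme degrades retinoic acid, differed by 1.127 (FDR 0.0215, edgeR), at -0.10 in XX (57.2 to 66.1 CPM in control, 51.9 to 63.6 in KO) and -1.23 in XY (99.7 ± 16.4 in control, 42.5 ± 3.45 in KO, SD, n = 3). The 5 are 0.0352% of tested genes, and 12.8% had an unadjusted p under 0.05. Without XY control 2, 228 genes were called, and 40 without XY control 1.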

How the results depend on the processing

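DESeq2 called 778 genes (420 higher, 358 lower; 167 in the interaction). The other scalings and filters gave 421 to 444 called genes, with 14 in the interaction without a filter on low counts, and a fit of the XX libraries alone gave 572. Leaving out 1 of the 12 libraries gave 142 (without XX control 2) to 664 (without XY control 2) called genes, 64 to 382 higher and 66 to 282 lower, and 2 to 228 in the interaction. Beside XX control 2, the count was more than 1.5 times smaller without XX control 1 (173), XX control 3 (181), XX KO 1 (289) or XX KO 3 (197). The causes were not tested. A fit with the replicate number as a block gave 388 (214 higher, 174 lower; 4 in the interaction). Same-numbered XX samples correlated at 0.221, -0.1 and -0.201 in their deviations from the group means. KO and control samples of different numbers correlated at -0.271 to 0.342. With 3 libraries a group, these values do not decide whether the numbers pair the libraries. Of DEGs with a mean of at least 10 CPM, 91.75% had the same direction at E12.5, and 8mers alone were in 33.2% of DEGs higher and 13.73% of those lower. Scaling by total counts moved the list medians of BCL2 family genes to -0.2121, Hedgehog to 0.2771, Sertoli and testis pathway to -0.1539, TGF-beta, activin and BMP to 0.0282, bipotential gonad to -0.04881, protocadherins to 0.2587 and hypoxia and glycolysis to -0.0401. Without 1 XX library, a choice added after seeing the data for 6 lists, the medians ran from 0.2543 to 0.3218 for protocadherins, from -0.4157 to -0.2348 for nephric duct and from -0.1115 to 0.004618 for pre-granulosa and Wnt genes. Directions of uncalled genes changed for Cd68 (-0.3685 to 0.1182), Lhx9 (-0.03309 to 0.2681), Lyz2 (-0.4218 to 0.5721) and Star (-0.1444 to 0.08205), and none of 98 called genes named in the text did under any alternative run. Of the 98, 17 lost their call with the replicate block, 11 with scaling by total counts, 11 with XX libraries alone, 10 without a filter, 3 with RLE scaling and none with DESeq2, 4 of 97 with a filter in 3 XX libraries, 29 to 53 without 1 XX library, 12 to 17 without 1 XY KO library and up to 6 without 1 XY control library. At this depth and with 3 libraries a group, changes of 1.5-fold were often missed.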

Other observations

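Groups of genes not on the lists above were written down after the values had been seen, so their counts are descriptions. For each count below, the share over all tested genes was 1.81% called higher and 1.46% called lower in XX KO. Of 55 further leukocyte genes 20 were called lower and none higher in XX KO, with a median log2 fold change of -0.706, and in 37 all XX KO libraries lay below all controls (11.9% of all tested genes did). Their summed level was 603 to 664 CPM in XX control and 452 to 547 CPM in XX KO. Il10ra, a cytokine receptor gene, was at 4.47, 4.70 and 4.47 CPM in XX control and at 2.26, 1.66 and 1.71 CPM in XX KO, and Rac2, a small GTPase gene of blood cells, at 8.37, 8.47 and 8.57 CPM and at 5.43, 3.57 and 3.78 CPM. Siglecg (-2.38), Clec7a (-1.61), Sash3 (-1.43), Blnk (-1.41) and Irf8 (-0.87) were also called lower. Of 12 genes for digestive enzymes of pancreatic type 5 fell and none rose. Pnlip, of pancreatic lipase, was at 9.06, 8.42 and 6.31 CPM in XX control and at 2.07, 3.06 and 1.94 CPM in XX KO (-1.75 ± 0.24; FDR 0.00105, edgeR), and Pnliprp2 fell by 1.69 ± 0.19, Pnliprp1 by 1.10 ± 0.25 and Cpa1 by 0.91 ± 0.17. The sum over the 12 was 83.4 to 89.2 CPM in XX control and 31.6 to 41.3 CPM in XX KO.

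Of 42 genes for elastic fibres and matrix glycoproteins 15 rose and none fell, with a median of 0.466, and in 26 all XX KO libraries lay above all controls (12.7% of all tested genes did). Ltbp4, of a protein that binds latent TGF-beta in elastic fibres, was at 96.7, 71.7 and 84.7 CPM in XX control and at 162, 211 and 222 CPM in XX KO (1.23 ± 0.17; FDR 0.00144, edgeR). Fn1, of fibronectin, was at 653, 556 and 674 CPM and at 1169, 784 and 1094 CPM (0.69 ± 0.16; FDR 0.0284, edgeR). Tnc (1.27), Emilin3 (1.12), Fbln2 (0.92), Eln (0.85), Lox (0.75) and Fbn1 (0.70) rose too. Of 26 genes for collagen-modifying enzymes 7 rose and none fell, among them Lox, which is on both lists, Loxl2 and all of P3h1, P3h2, P3h3 and P3h4, the prolyl 3-hydroxylase family, at log2 fold changes of 0.40 to 0.59. Of 23 integrin chains 4 rose and 1 fell. Of the genes named in these paragraphs, Siglecg, Pnlip, Pnliprp2 and Ltbp4 kept their call without any 1 XX library, and each other gene lost it without at least 1, with FDR values of up to 0.229 (P3h1 without XX control 2, edgeR).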
